A study of Homo sapiens with 4 samples.

Results

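The mRNA levels of 45 lysosomal genes were followed in A549 cells, an established line from a human lung adenocarcinoma. The genes were taken by symbol from a list of lysosomal hydrolases, membrane proteins, proton pump subunits and the factor TFEB, and a mean of at least 1 FPKM over the libraries was required. All 45 were found among the 26255 symbols measured, and all 45 passed the filter, which 12663 genes passed in all. By role they comprised 13 cathepsins and other lysosomal proteases with the thiol reductase IFI30, 15 glycosidases and sulfatases, 5 lipid hydrolases and activators, 4 membrane proteins, TFEB, and 7 subunits of the proton pump. The 4 groups had 1 library each and were 3D hypoxia, 3D normoxia, 2D hypoxia and 2D normoxia. The genotype given for every group was WT. Cells of the 3D groups had grown on solidified Matrigel, a gelled basement membrane extract, and cells of the 2D groups on a culture dish, all for 5 days in medium with 5% serum. Hypoxia meant 1% oxygen. The study asked what marks the micropapillary-like structures that hypoxia induces in these cells.

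Lysosomes are acidic organelles that break down proteins, glycans and lipids delivered by endocytosis and autophagy. A proton pump of the vacuolar type, the V-ATPase, acidifies the lumen, where the soluble hydrolases, most of them sorted by a mannose 6-phosphate tag, are active. Heavily glycosylated membrane proteins such as LAMP1 and LAMP2 line the limiting membrane. The transcription factor TFEB and its relatives bind an E-box with the letters CACGTG, the core of the CLEAR element, in the promoters of many lysosomal genes. Hypoxia-inducible factors bind a core with the letters ACGTG or GCGTG. Because CACGTG contains ACGTG, the letters alone do not tell these sites apart.

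Promoter sequences of 4 genes are shown as a description, and no expression result rests on them. CTSL, IFI30 and CTSC had the largest hypoxia effects among the 45 genes, and ATP6V0D1 is a pump subunit whose hypoxia effect was small. Each sequence is 1 RefSeq window of build GRCh38.p14, with 250 bases before and 50 bases after an annotated start, written 5′ to 3′ on the strand of the gene. The windows are CTSL at chr9:87725869-87726168 on the plus strand, IFI30 at chr19:18173563-18173862 on the plus strand, CTSC at chr11:88337687-88337986 on the minus strand and ATP6V0D1 at chr16:67481108-67481407 on the minus strand. Capitals mark CACGTG along with the TCACGTGA around it, any other ACGTG, and also GCGTG, each searched on either strand. On the opposite strand GCGTG reads CACGC here.
CTSL: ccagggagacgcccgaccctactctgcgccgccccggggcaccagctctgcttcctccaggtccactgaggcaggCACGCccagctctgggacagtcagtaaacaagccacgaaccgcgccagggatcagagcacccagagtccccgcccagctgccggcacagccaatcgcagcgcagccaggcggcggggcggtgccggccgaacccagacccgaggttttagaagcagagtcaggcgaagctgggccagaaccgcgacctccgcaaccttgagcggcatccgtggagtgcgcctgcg
IFI30: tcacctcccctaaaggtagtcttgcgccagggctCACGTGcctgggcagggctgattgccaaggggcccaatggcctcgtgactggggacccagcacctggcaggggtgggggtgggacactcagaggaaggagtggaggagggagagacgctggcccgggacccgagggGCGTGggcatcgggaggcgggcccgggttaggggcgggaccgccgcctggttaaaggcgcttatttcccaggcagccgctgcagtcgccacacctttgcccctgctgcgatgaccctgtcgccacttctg
CTSC: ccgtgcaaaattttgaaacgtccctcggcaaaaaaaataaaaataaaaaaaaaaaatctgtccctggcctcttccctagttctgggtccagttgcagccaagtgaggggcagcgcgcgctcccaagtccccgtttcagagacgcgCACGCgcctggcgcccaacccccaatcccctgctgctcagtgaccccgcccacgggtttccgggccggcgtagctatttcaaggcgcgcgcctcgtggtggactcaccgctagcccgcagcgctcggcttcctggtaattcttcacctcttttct
ATP6V0D1: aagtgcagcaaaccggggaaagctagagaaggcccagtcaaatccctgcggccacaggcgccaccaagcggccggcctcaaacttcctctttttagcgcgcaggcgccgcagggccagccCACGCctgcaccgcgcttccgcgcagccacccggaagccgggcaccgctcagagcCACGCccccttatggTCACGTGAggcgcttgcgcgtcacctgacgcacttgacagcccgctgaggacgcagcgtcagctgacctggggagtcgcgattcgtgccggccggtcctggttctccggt

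The ATP6V0D1 window held the palindrome TCACGTGA, which begins at position -60 from the start. The IFI30 window held CACGTG at -216 and GCGTG at -80, and the CTSL and CTSC windows held no CACGTG. In CTSL the marked letters begin at -175 and in CTSC at -105, each a GCGTG on the opposite strand. A match describes letters in a window and shows no binding.

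The values were FPKM, which divide the fragments of a gene by transcript length and by depth, so levels of different genes can be set side by side. Library FPKM sums ran from 473503 to 596102. Depth, inferred from the lowest FPKM steps, was about 11300000 and 11800000 fragments in 3D hypoxia and 3D normoxia, against 38800000 and 24000000 in 2D hypoxia and 2D normoxia, so that depth differed along with culture and its part in the culture effects was not tested. Average effects of oxygen and of culture over the 4 libraries were tested with limma on log2(FPKM + 1), and "rose" and "fell" are kept for genes with an adjusted p below 0.05. Pairs of libraries were described by size only, as log2 ratios of FPKM + 1, which lie closer to 0 than ratios of FPKM for low genes. Nothing says that the libraries came from separate cultures, and no group had a replicate. With 1 residual degree of freedom, the variance behind each p came largely from a prior fitted over all genes (4.67 degrees of freedom). Each p therefore measures no spread between replicates. In such bulk samples, fewer cells expressing a gene and less RNA per cell cannot be told apart. The epithelial keratins KRT8 and KRT18 were at least 1894 and 1721 FPKM in every library. Of 12 leukocyte and macrophage markers, 2 (CD14 and ITGAM) passed the filter, PTPRC was at most 0.0168 FPKM, and CSF1R, CD163, AIF1, TYROBP and CD3E were listed at 0 throughout. Of 12 fibroblast and endothelial markers, 1 (COL1A1) passed, and it fell in 3D (-1.99). Their summed level was 0.968 and 1.10 FPKM in 3D hypoxia and 3D normoxia, against 14.6 and 3.27 FPKM in 2D hypoxia and 2D normoxia. Of 12 epithelial and A549 markers, 9 passed. AKR1C1 fell in hypoxia (-0.93), while AKR1C1, AKR1B10 and KRT19 rose and KRT7 fell in 3D, and the part of these shifts in the lysosomal results was not tested. EPCAM, an epithelial adhesion molecule, was low at 1.43 to 2.73 FPKM, and the alveolar genes NKX2-1, SFTPB and SFTPC did not exceed 0.1003 FPKM in any library.

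The lysosomal genes varied widely in level. PSAP, the precursor of the saposins that help hydrolases act on sphingolipids, was the highest at rank 86 of 26255 symbols by mean FPKM, and the aspartic protease CTSD followed at rank 109. TFEB and CTSO were the lowest, at ranks 10925 and 10767.

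**Figure D1:**
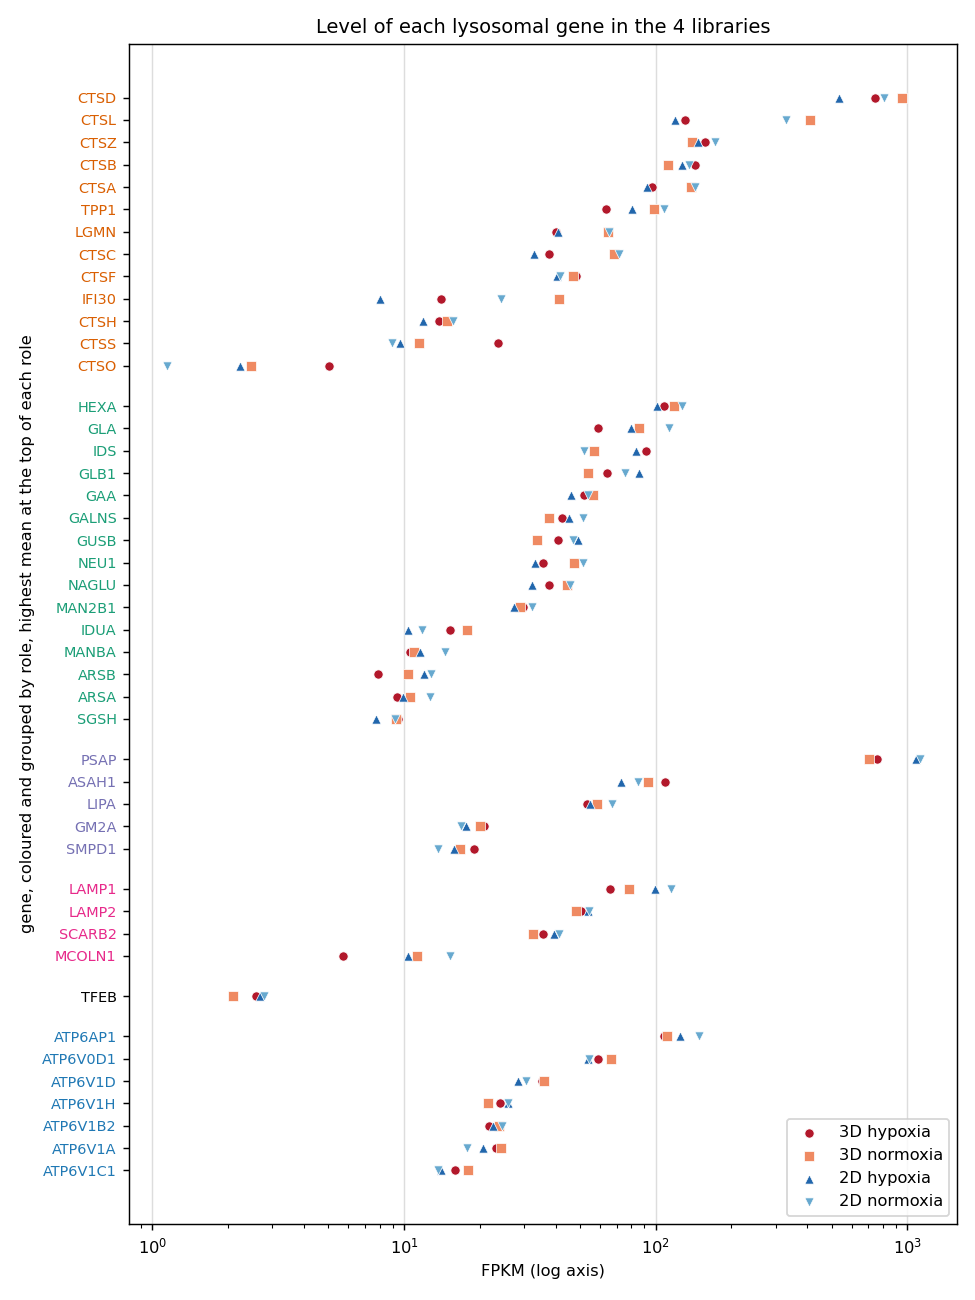
The 45 lysosomal genes (vertical axis, coloured and grouped by role) are plotted by FPKM on a log axis, with 1 point per library. Levels run from 1.14 FPKM (CTSO in 2D normoxia) to 1120.2 FPKM (PSAP in 2D normoxia), and the 2 hypoxia points of CTSL and IFI30 lie left of their normoxia points.

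Under hypoxia, 4 of the 13 genes of the protease group fell, and its median effect was the lowest of the 6 role groups. CTSL, a cysteine endopeptidase, fell to about a 0.340-fold level, IFI30 to 0.357-fold, CTSC to 0.512-fold and LGMN to 0.631-fold. Among all 45 genes, IDS alone rose, 1.59-fold. Of all genes tested, 3.20% rose and 1.64% fell in hypoxia on average, against 1 and 4 of the 45 lysosomal genes. At an unadjusted p below 0.05 the counts were 3 higher and 11 lower of the 45, against 12.9% and 12.7% of all genes.

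CTSL was at 130.5 FPKM in 3D hypoxia against 411 in 3D normoxia, and at 119 in 2D hypoxia against 331 in 2D normoxia. Both hypoxia libraries lay well below both normoxia libraries. The average hypoxia effect of CTSL was -1.56 ± 0.13 (log2, SE; limma adjusted p = 0.00811), and the log2 ratios of the pairs were -1.65 in 3D and -1.46 in 2D, with counting errors of 0.04 and 0.02. CTSL made up 8.60% of the summed FPKM of the protease group in 3D hypoxia against 19.6% in 3D normoxia, and 9.57% in 2D hypoxia against 17.2% in 2D normoxia. Its pseudogenes CTSLP2 and CTSLP8 did not pass 0.0858 FPKM in any library.

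IFI30, an interferon-inducible reductase that opens disulfide bonds of proteins taken up for degradation, was at 14.0 FPKM in 3D hypoxia against 41.1 in 3D normoxia, and at 8.01 in 2D hypoxia against 24.3 in 2D normoxia. The hypoxia libraries were again the lower ones in both cultures, and 3D was above 2D at each oxygen level. The average hypoxia effect was -1.49 ± 0.11 (log2, SE; limma adjusted p = 0.00661), with a log2 ratio of -1.49 in each culture. IFI30 shares up to 269 exonic bases with another annotated gene on its strand, not analysed here, so that its level is uncertain to that extent. The calls of CTSL and IFI30 both held in 7 of 8 alternative settings of the fit, the exception being the fit without a filter on low values, which called no gene at all.

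CTSC, an exopeptidase that removes dipeptides and activates granule serine proteases, was at 37.7 FPKM in 3D hypoxia against 68.3 in 3D normoxia, and at 32.9 in 2D hypoxia against 71.4 in 2D normoxia. The 2 hypoxia libraries were close to each other and so were the 2 normoxia libraries. Its average hypoxia effect was -0.97 ± 0.13 (log2, SE; limma adjusted p = 0.0241), and the call held in 6 of 8 alternatives. LGMN, the asparaginyl endopeptidase that processes other cathepsins, was at 40.2 FPKM in 3D hypoxia against 64.5 in 3D normoxia, and at 40.8 in 2D hypoxia against 65.1 in 2D normoxia. Its level was nearly the same in both cultures at each oxygen level. The average hypoxia effect of LGMN was -0.66 ± 0.12 (limma adjusted p = 0.0409), a call that held in 4 of 8 alternatives and was lost at adjusted p = 0.0741 with a pseudocount of 5.

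The remaining proteases missed the threshold. The serine carboxypeptidase CTSA, which also protects GLB1 and NEU1 in a complex, had an average hypoxia effect of -0.57 ± 0.12 (limma adjusted p = 0.0647), and the tripeptidyl peptidase TPP1 had -0.52 ± 0.13 (0.0794). CTSA shares exonic bases with NEURL2 and PLTP on the opposite strand, and the sources used here do not give a strand setting. CTSD, the most abundant protease of the group, was at 744 FPKM in 3D hypoxia against 950.2 in 3D normoxia, and at 533 in 2D hypoxia against 806 in 2D normoxia. Both hypoxia values lay below both normoxia values, but the average effect of -0.47 ± 0.15 did not pass (limma adjusted p = 0.133). CTSZ, a carboxypeptidase, had 157 FPKM in 3D hypoxia against 139 in 3D normoxia, and 147 in 2D hypoxia against 171 in 2D normoxia, so its hypoxia ratio was above 0 in 3D and below 0 in 2D. CTSB, a cysteine protease with both endo- and exopeptidase activity, showed the same arrangement with 143 and 112 FPKM in 3D hypoxia and 3D normoxia, and 128 and 136 FPKM in 2D hypoxia and 2D normoxia. CTSH and CTSF, both cysteine cathepsins, had average hypoxia effects of -0.24 and -0.0048.

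Counted over the protease group, IFI30 included, 10 of the 13 genes had an average hypoxia effect below 0, with a median log2 of -0.47. Of all genes tested, 51.7% were below 0. The median of all 12663 genes was -0.01 and that of the 45 lysosomal genes was -0.10. At an unadjusted p below 0.05 limma counted 7 lower and 2 higher in the group, the 4 called genes included, against 12.7% lower and 12.9% higher of all genes. The 3 genes above 0 were CTSB, CTSS and CTSO.

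CTSO and CTSS stood apart within the protease group. CTSO, a cysteine cathepsin of low level here, was at 5.01 FPKM in 3D hypoxia against 2.47 in 3D normoxia, and at 2.23 in 2D hypoxia against 1.14 in 2D normoxia. These levels rested on about 167, 87, 255 and 81 inferred fragments in that order. CTSO was higher in hypoxia than in normoxia within each culture, and higher in 3D than in 2D at each oxygen level. It rose in 3D on average (0.80 ± 0.15 log2, SE; limma adjusted p = 0.0237), whereas its hypoxia effect of 0.69 ± 0.15 missed (0.0683).

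CTSS, an elastolytic cathepsin that stays active at neutral pH and trims the invariant chain of MHC class II, was at 23.7 FPKM in 3D hypoxia against 11.5 in 3D normoxia, and at 9.66 in 2D hypoxia against 8.92 in 2D normoxia. The 3D hypoxia library was the high one, and the other 3 lay close together. The log2 ratio of hypoxia to normoxia was 0.98 in 3D, with a counting error of 0.09, and 0.10 in 2D, with a counting error of 0.07. The difference of these responses, 0.88, was the highest of the 45 genes and could not be tested with 1 library per group. The average culture effect of CTSS was 0.77 ± 0.22 (limma adjusted p = 0.0543).

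By size within single pairs, few lysosomal genes differed 2-fold on the FPKM + 1 scale. In 3D, hypoxia against normoxia, none of the 45 was at least 2-fold higher on that scale, although CTSS and CTSO were just past 2-fold in FPKM, and 2 (CTSL and IFI30) were at least 2-fold lower, against 2.91% and 1.11% of all genes. In 2D, none was higher and 3 (CTSL, IFI30 and CTSC) were lower, against 2.01% and 1.59% of all genes. None of the 45 had a difference of hypoxia responses of at least 2-fold in either direction, against 1.87% of all genes that were higher in 3D and 0.861% that were lower. The ratio had the same sign in both cultures for 68.9% of the lysosomal genes, 24 below 0 and 7 above 0, and for 70.8% of all genes.

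**Figure D2:**
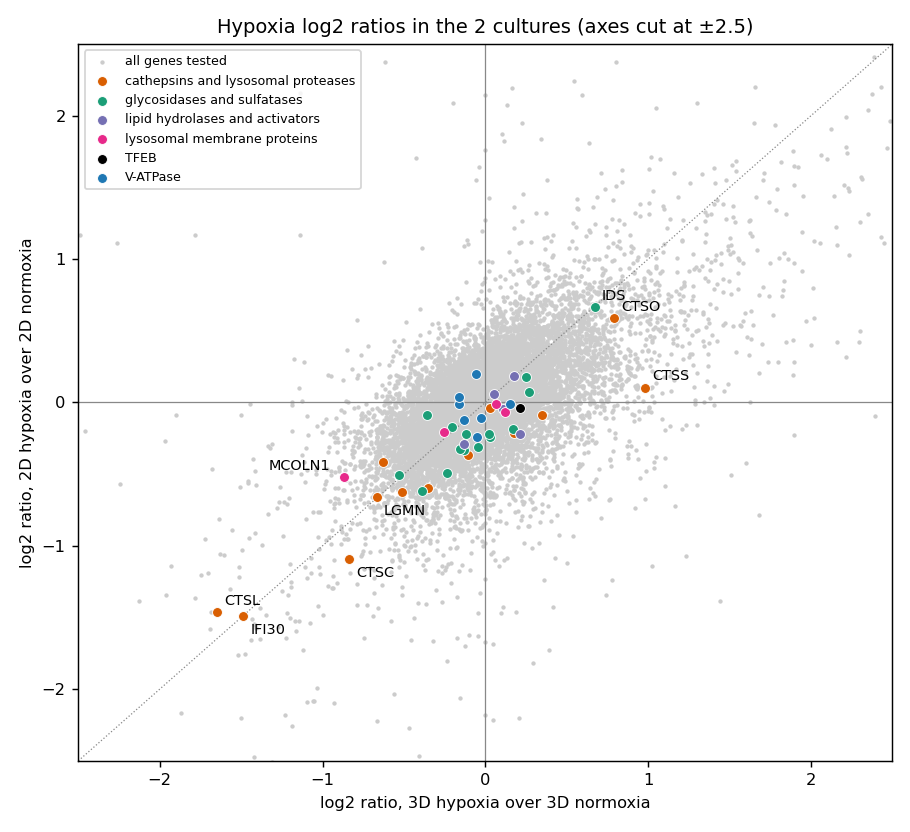
Each point is a gene, with its log2 ratio of hypoxia to normoxia in 3D on the horizontal axis and in 2D on the vertical axis, grey for all genes tested and coloured by role for the 45 lysosomal genes; genes beyond the axes are not drawn. CTSL (-1.65 and -1.46) and IFI30 (-1.49 in both) lie far down the diagonal, while CTSS (0.98 and 0.10) lies right of it.

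The genes called for culture were others than those called for hypoxia, apart from IFI30. They were no larger a share of the 45 genes than of all genes tested. With 3D set against 2D over both oxygen levels, 3 of the 45 genes rose (CTSO, IFI30 and IDUA) and 4 fell (PSAP, MCOLN1, LAMP1 and GLB1), against 10.4% and 11.6% of all genes tested. Scaling every library to the same FPKM sum changed these splits to 2 higher and 9 lower of the 45 genes, against 767 higher and 3132 lower of all genes in place of 1313 and 1472. The same scaling gave 0 higher and 9 lower for the hypoxia effect, against 303 higher and 475 lower of all genes in place of 405 and 208. IFI30 had a culture effect of 0.74 ± 0.11 (log2, SE; limma adjusted p = 0.0146), which was opposite in sign to its hypoxia effect. In single pairs on the FPKM + 1 scale, 1 gene (CTSS, log2 1.21) was at least 2-fold higher in 3D than in 2D under hypoxia and none was lower, against 3.80% and 3.02% of all genes. Under normoxia none was at least 2-fold apart on that scale in either direction, against 1.98% higher and 2.49% lower of all genes. CTSO was past 2-fold in FPKM, 3D over 2D, at both oxygen levels.

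**Figure D3:**
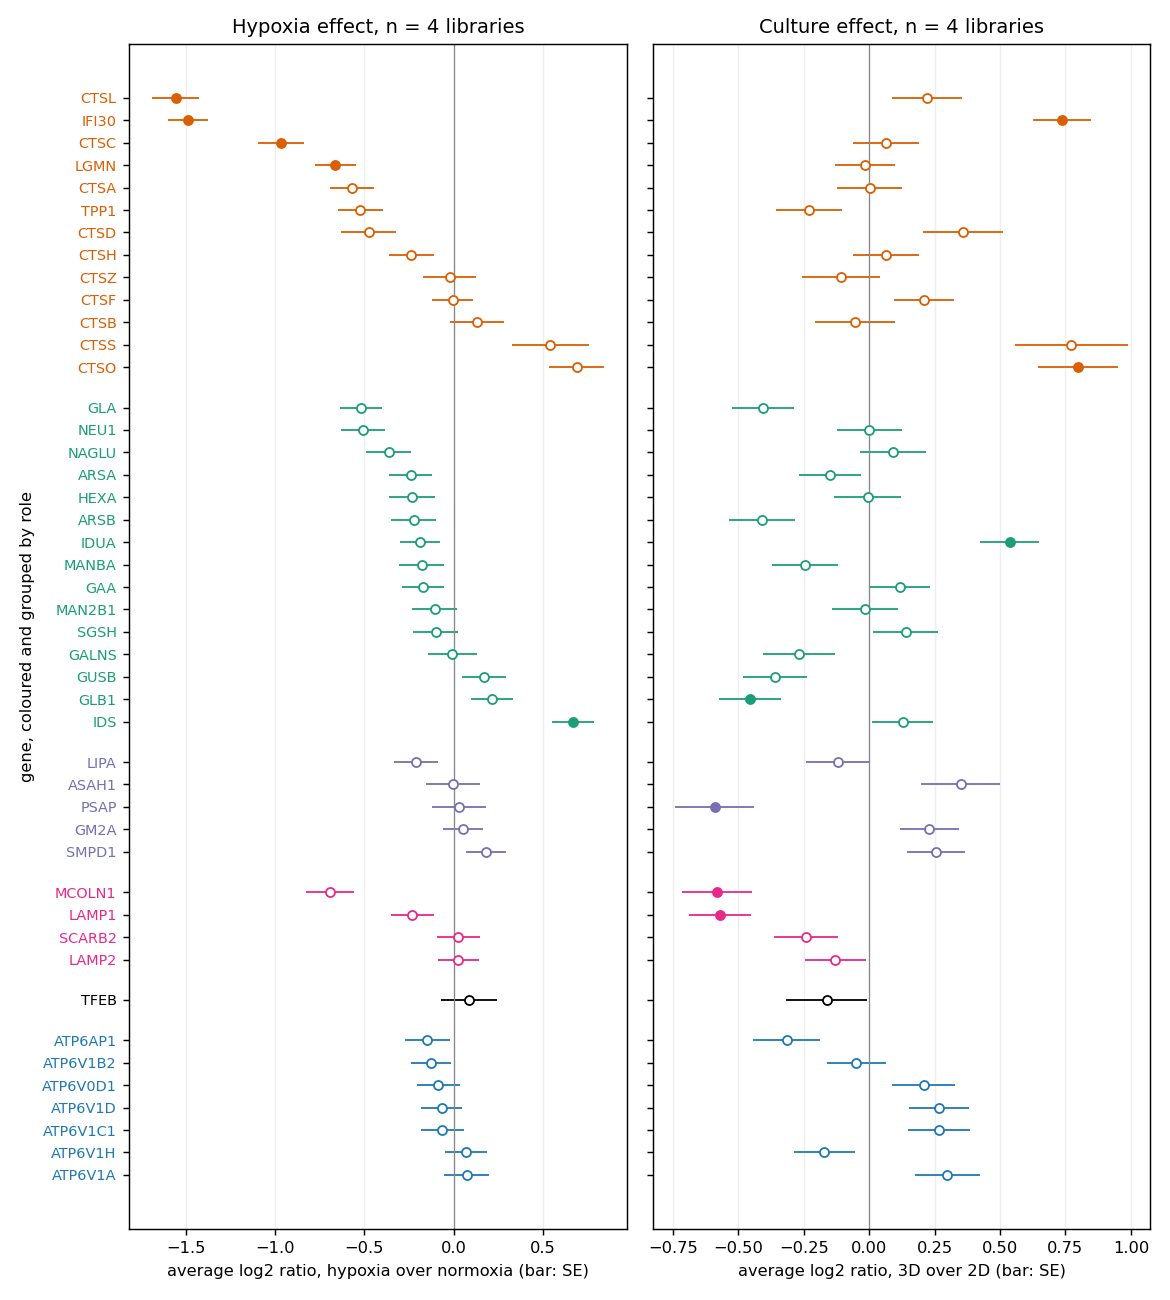
Average log2 effects of hypoxia (left, hypoxia over normoxia) and culture (right, 3D over 2D) are drawn for the 45 genes, with bars of 1 SE from limma over 4 libraries and filled points for an adjusted p below 0.05. On the left, CTSL, IFI30, CTSC and LGMN are filled below 0 and IDS above it; on the right, CTSO, IFI30 and IDUA are filled above 0 and GLB1, PSAP, MCOLN1 and LAMP1 below it.

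The 15 glycosidases and sulfatases take sugars and sulfate groups off glycoproteins, glycolipids and glycosaminoglycans. In hypoxia 1 of them rose and none fell by limma, against 3.20% and 1.64% of all genes. At an unadjusted p below 0.05, 1 was higher and 3 were lower, against 12.9% and 12.7% of all genes. The median hypoxia effect was -0.18, and 12 of the 15 lay below 0, against 51.7% of all genes. IDS, the sulfatase that starts the breakdown of dermatan and heparan sulfate, was at 91.3 FPKM in 3D hypoxia against 56.9 in 3D normoxia, and at 83.3 in 2D hypoxia against 52.1 in 2D normoxia. Both hypoxia libraries lay above both normoxia libraries, with a log2 ratio of 0.67 in each culture. The average effect was 0.67 ± 0.12 (log2, SE; limma adjusted p = 0.0412). The call held in 3 of 8 alternatives and was lost, for example, at adjusted p = 0.0567 after scaling to equal FPKM sums. IDS shares up to 676 exonic bases with another annotated protein-coding gene on its strand, not analysed here, and has a pseudogene, IDSP1, so its level is uncertain.

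IDUA acts on the same glycosaminoglycans as IDS, removing the iduronic acid, and moved with culture instead. It was at 15.3 and 17.7 FPKM in 3D hypoxia and 3D normoxia, against 10.3 and 11.8 FPKM in 2D hypoxia and 2D normoxia. Both 3D libraries were the higher ones, and the average culture effect was 0.54 ± 0.11 (log2, SE; limma adjusted p = 0.0280). The call held in 6 of 8 alternatives and was lost at adjusted p = 0.0613 after scaling to equal FPKM sums. IDUA shares up to 393 exonic bases with SLC26A1 on the opposite strand, which was at 2.08 to 3.09 FPKM, so that its level is uncertain to that extent.

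GLB1, the lysosomal beta-galactosidase, ran the other way with 63.9 and 53.6 FPKM in 3D hypoxia and 3D normoxia, against 85.9 and 75.8 FPKM in 2D hypoxia and 2D normoxia. Its average culture effect was -0.46 ± 0.12 (limma adjusted p = 0.0454), called in 4 of 8 alternatives and lost at 0.0574 with a pseudocount of 5. HEXA, the alpha subunit of beta-hexosaminidase, was the highest of the group, with 108 FPKM in 3D hypoxia against 118 in 3D normoxia, and 101 in 2D hypoxia against 128 in 2D normoxia. GLA, the alpha-galactosidase, had 59.2 FPKM in 3D hypoxia against 86.0 in 3D normoxia, and 79.5 in 2D hypoxia against 113 in 2D normoxia. GLA was lower in hypoxia within each culture and lower in 3D at each oxygen level, but neither its hypoxia effect (-0.52, limma adjusted p = 0.0708) nor its culture effect (-0.41, 0.0594) passed. The sialidase NEU1 had a hypoxia effect of -0.51 (0.0813).

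The other 9 genes of this group did not pass in either effect. The sulfatases ARSA, ARSB, GALNS and SGSH had hypoxia effects of -0.24, -0.22, -0.0059 and -0.10. NAGLU, which works on heparan sulfate, had -0.36, the beta-mannosidase MANBA -0.18, the glycogen-degrading GAA -0.17 and the alpha-mannosidase MAN2B1 -0.10. GUSB, the beta-glucuronidase, had 0.17. GUSB has many pseudogenes, of which GUSBP11 reached 4.18 FPKM, and reads may be split between these copies.

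PSAP carried most of the signal of the 5 lipid-related genes, 79.0% of their summed FPKM in 3D hypoxia, 78.9% in 3D normoxia, 87.1% in 2D hypoxia and 86.0% in 2D normoxia. It was at 760.1 and 706 FPKM in 3D hypoxia and 3D normoxia, against 1086 and 1120.2 FPKM in 2D hypoxia and 2D normoxia. Every 3D value lay below every 2D value, and PSAP fell in 3D on average (-0.59 ± 0.15 log2, SE; limma adjusted p = 0.0444). The call held in 5 of 8 alternatives and was lost at adjusted p = 0.0552 with a pseudocount of 5.

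The acid ceramidase ASAH1 had 109 FPKM in 3D hypoxia against 93.4 in 3D normoxia, and 73.0 in 2D hypoxia against 85.2 in 2D normoxia, and its culture effect of 0.35 did not pass (limma adjusted p = 0.141). The 3D libraries were the higher ones for ASAH1, unlike for PSAP. LIPA, the acid lipase that frees cholesterol from its esters, had 53.2 FPKM in 3D hypoxia against 58.3 in 3D normoxia, and 54.7 in 2D hypoxia against 67.2 in 2D normoxia. The acid sphingomyelinase SMPD1 and the ganglioside activator GM2A had culture effects of 0.26 and 0.23, neither of which passed. None of the 5 genes was called for hypoxia by limma, against 3.20% higher and 1.64% lower of all genes. None had an unadjusted p below 0.05 by limma for hypoxia, against 12.9% higher and 12.7% lower of all genes. Their median hypoxia effect was 0.03, which was -0.10 after scaling to equal FPKM sums.

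All 4 membrane proteins had culture effects below 0, with a median of -0.41, and 2 of them fell in 3D. Of all genes tested, 52.7% had a culture effect below 0 and 11.6% fell in 3D. LAMP1, a main glycoprotein of the lysosomal membrane, was at 65.5 and 78.5 FPKM in 3D hypoxia and 3D normoxia, against 99.7 and 115 FPKM in 2D hypoxia and 2D normoxia. The 3D values lay below the 2D values without overlap, and LAMP1 fell with an effect of -0.57 ± 0.12 (log2, SE; limma adjusted p = 0.0280). MCOLN1, a cation channel that releases calcium from lysosomes, was at 5.71 and 11.2 FPKM in 3D hypoxia and 3D normoxia, against 10.3 and 15.3 FPKM in 2D hypoxia and 2D normoxia. The 3D hypoxia library was the lowest and 2D normoxia the highest, with the other 2 close together. Its culture effect was -0.58 ± 0.13 (limma adjusted p = 0.0345), and its hypoxia effect of -0.69 ± 0.13 lay just outside the threshold (0.0508). The culture calls of LAMP1 and MCOLN1 held in 7 of 8 alternatives. MCOLN1 shares up to 110 exonic bases with another annotated protein-coding gene on its strand, not analysed here, so that its level is uncertain to that extent.

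LAMP2, the partner glycoprotein needed for fusion with autophagosomes and for chaperone-mediated autophagy, was nearly level at 50.4 FPKM in 3D hypoxia, 48.2 in 3D normoxia, 53.9 in 2D hypoxia and 54.2 in 2D normoxia. SCARB2, an abundant protein of the lysosomal membrane, had 35.6 FPKM in 3D hypoxia, 32.6 in 3D normoxia, 39.5 in 2D hypoxia and 41.4 in 2D normoxia. Both had hypoxia effects of 0.03, and their culture effects of -0.13 and -0.24 did not pass. No membrane protein was called for hypoxia by limma, against 3.20% higher and 1.64% lower of all genes. At an unadjusted p below 0.05 by limma, 1 was lower and none higher, against 12.7% and 12.9% of all genes.

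TFEB itself was low, at 2.57 FPKM in 3D hypoxia, 2.08 in 3D normoxia, 2.67 in 2D hypoxia and 2.77 in 2D normoxia. The 3D normoxia value was the lowest and the other 3 lay close together. Its average effects were 0.09 ± 0.16 for hypoxia (limma adjusted p = 0.771) and -0.16 ± 0.16 for culture (0.474), and the hypoxia effect turned to -0.01 after scaling to equal FPKM sums. These values describe its mRNA, while TFEB is controlled largely by phosphorylation and its place in the cell.

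Hypoxia effects of the 7 V-ATPase genes ran from -0.15 to 0.07. None was called by limma in either effect, and none had an unadjusted p below 0.05. Of all genes, 12.9% were higher and 12.7% lower at that p in hypoxia, and 18.8% and 21.5% in culture. The other 17 subunits and assembly factors that passed the filter ran more widely, from -0.48 to 0.35. ATP6AP1, an accessory subunit, was at 107 FPKM in 3D hypoxia against 111 in 3D normoxia, and at 125 in 2D hypoxia against 148 in 2D normoxia. ATP6V0D1, a subunit that links the rotor to the membrane ring, was at 59.2 FPKM in 3D hypoxia against 66.2 in 3D normoxia, and at 53.9 in 2D hypoxia against 54.2 in 2D normoxia. ATP6V1D, part of the central shaft, had 35.2 FPKM in 3D hypoxia against 35.8 in 3D normoxia, and 28.3 in 2D hypoxia against 30.5 in 2D normoxia. In each of these the hypoxia library was the lower one in both cultures, by little in some pairs. The log2 ratios of ATP6V0D1 in 2D (-0.0094) and ATP6V1D in 3D (-0.025) lay within their counting errors of 0.04 and 0.09.

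For culture, 4 of the 7 pump genes were above 0 and 3 below 0, against 52.7% of all genes below 0. Their median log2 was 0.21, which was 0.01 after scaling to equal FPKM sums. The catalytic subunit ATP6V1A had the highest culture effect, 0.30 ± 0.12 (limma adjusted p = 0.134), and ATP6AP1 the lowest, -0.32 ± 0.13 (0.126). The cytosolic subunits ATP6V1C1, ATP6V1B2 and ATP6V1H had culture effects of 0.27, -0.05 and -0.17.

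Summed levels set these groups side by side. The 13 genes of the protease group, IFI30 included, together had 1516 FPKM in 3D hypoxia against 2098 in 3D normoxia, and 1246 in 2D hypoxia against 1923 in 2D normoxia. As a share of all FPKM of the library this was 0.254% against 0.386% in 3D and 0.240% against 0.406% in 2D. Both hypoxia libraries were the lower ones, and without CTSD the log2 ratios of the sums were -0.57 in 3D and -0.65 in 2D. The 5 lipid-related genes had sums of 962 and 894 FPKM in 3D hypoxia and 3D normoxia, against 1248 and 1303 FPKM in 2D hypoxia and 2D normoxia. Without PSAP the sums were 201 and 188 FPKM in 3D hypoxia and 3D normoxia, against 161 and 183 FPKM in 2D hypoxia and 2D normoxia. The membrane proteins summed to 157 and 171 FPKM in 3D hypoxia and 3D normoxia, against 203 and 226 FPKM in 2D hypoxia and 2D normoxia. The glycosidases and sulfatases summed to 613, 623, 634 and 711 FPKM and the pump genes to 287, 301, 290.4 and 315 FPKM, each in the order 3D hypoxia, 3D normoxia, 2D hypoxia and 2D normoxia, so that 2D normoxia was the highest in both.

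**Figure D4:**
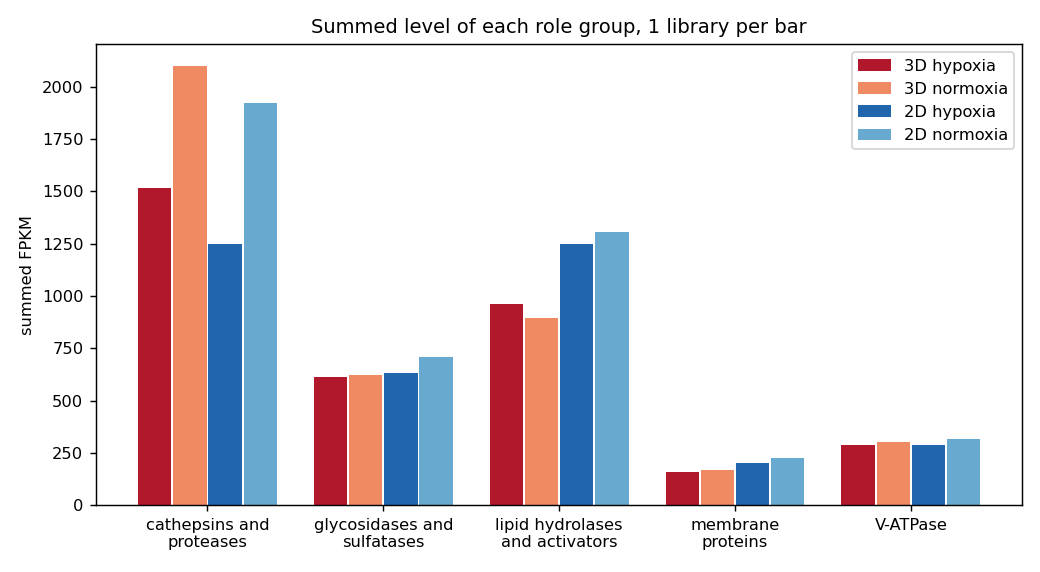
Bars give the summed FPKM of each role group except TFEB, with 1 library per bar and no error bars. The protease sums are lower in both hypoxia libraries (1516 and 1246 FPKM) than in both normoxia libraries (2098 and 1923 FPKM), while the lipid-related sums are lower in both 3D libraries.

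Other genes of the pathway were read from lists chosen for this tissue and process. The counts of every list below stand against the same shares of all genes tested. In hypoxia 3.20% rose and 1.64% fell, and in 3D 10.4% rose and 11.6% fell. At an unadjusted p below 0.05 by limma, 12.9% were higher and 12.7% lower in hypoxia. Calls of single genes in these lists were not followed over the alternative settings. Some lay close to the threshold for culture, such as DNASE2, GNPTG and LAMTOR1 (limma adjusted p = 0.0493, 0.0486 and 0.0480). Of 28 other lysosomal hydrolases and activators, 27 passed the filter, none rose and 1 fell in hypoxia, and 1 rose and 4 fell in 3D. CTSV, a close relative of CTSL, fell in 3D (-1.18). It was lowest at 1.12 FPKM in 3D hypoxia and highest at 5.65 FPKM in 2D normoxia. The acid phosphatase ACP2 (-0.57) and the nuclease DNASE2 (-0.45) also fell in 3D, and the sulfatase ARSG rose (0.84). CTSK, a collagen-degrading cathepsin, had a hypoxia effect of 0.71 that did not pass (limma adjusted p = 0.0683).

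Of 24 other lysosomal membrane proteins and transporters, 23 passed the filter. In 3D, 1 rose and 6 fell, against 10.4% and 11.6% of all genes. NPC1, which exports cholesterol, had the largest fall (-1.21), with 15.8 and 9.51 FPKM in 3D hypoxia and 3D normoxia, against 27.0 and 32.9 FPKM in 2D hypoxia and 2D normoxia. MFSD12 (-0.92), a cysteine importer, SLC38A9 (-0.66), an arginine sensor of the mTORC1 pathway, CTNS (-0.57), the cystine exporter, SIDT2 (-0.54) and the metal transporter SLC11A2 (-0.45) fell as well. CD68 rose (0.90). None of these was called for hypoxia by limma, with 3 higher and 2 lower at an unadjusted p below 0.05. Of 21 other V-ATPase subunits and assembly factors, 17 passed, none was called for hypoxia (0 higher and 3 lower at an unadjusted p below 0.05), CCDC115, an assembly factor, rose in 3D (0.78) and the membrane subunit ATP6V0A2 fell (-0.67).

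Of 20 relatives and regulators of TFEB, 19 passed. None was called for hypoxia by limma, with 5 higher and 1 lower at an unadjusted p below 0.05, and MITF, a factor of the same family, had a hypoxia effect of 0.61 (limma adjusted p = 0.0590). In 3D, RRAGD (0.79), LAMTOR5 (0.66), LAMTOR4 (0.55) and LAMTOR1 (0.50), which hold mTORC1 at the lysosome, rose, and MTOR (-0.53) fell. Among all genes, 10.4% rose and 11.6% fell in 3D. Of 25 genes for sorting to lysosomes, all 25 passed and none was called for hypoxia (0 higher and 2 lower at an unadjusted p below 0.05). GNPTG, a subunit of the enzyme that makes the mannose 6-phosphate tag, rose in 3D (0.43), while NAGPA, which uncovers the tag, fell (-0.49) along with the clathrin heavy chain CLTC (-0.57) and the sorting receptor SORT1 (-0.53). The mannose 6-phosphate receptors IGF2R (-0.48, limma adjusted p = 0.0549) and M6PR (-0.39, 0.0674) did not pass.

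Of 26 autophagy genes, 25 passed, and 2 rose and none fell in hypoxia, against 3.20% and 1.64% of all genes. OPTN, an autophagy receptor, was at 57.8 FPKM in 3D hypoxia against 23.2 in 3D normoxia, and at 38.8 in 2D hypoxia against 18.4 in 2D normoxia, an average effect of 1.16 (limma adjusted p = 0.0141). ULK1, the kinase that starts autophagy, had a hypoxia effect of 0.74 (0.0321) and fell in 3D (-0.59). WIPI1 (0.87), SQSTM1 (0.84), GABARAP (0.70) and GABARAPL2 (0.60) rose in 3D. SQSTM1, an abundant receptor that is itself degraded by autophagy, was at 918 and 1099 FPKM in 3D hypoxia and 3D normoxia, against 482 and 648 FPKM in 2D hypoxia and 2D normoxia.

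Inhibitors of cysteine cathepsins ran with culture, and CST1 also differed with oxygen in 2D. Of 11 listed, 3 passed the filter, and all 3 rose in 3D, against 10.4% of all genes. None was called for hypoxia by limma or had an unadjusted p below 0.05. CST3, the secreted cystatin C, was at 539.8 and 438 FPKM in 3D hypoxia and 3D normoxia, against 261 and 283 FPKM in 2D hypoxia and 2D normoxia. The intracellular inhibitor CSTB rose by 0.74 and CST3 by 0.84 on the log2 scale. CST1, a secreted cystatin, rose by 2.66, with 49.3 and 47.6 FPKM in 3D hypoxia and 3D normoxia, against 3.37 and 13.0 FPKM in 2D hypoxia and 2D normoxia. The log2 ratio of hypoxia to normoxia of CST1 was 0.05 in 3D and -1.68 in 2D, with counting errors of 0.10 and 0.15. The difference of these responses, 1.73, was not tested.

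IFI30, CTSS and CTSL serve antigen presentation in professional antigen-presenting cells, so genes of that pathway were read beside them. Of 12 MHC class II genes, 2 passed the filter. HLA-DMB, a chain of the peptide-loading factor, was at 53.2 FPKM in 3D hypoxia against 143.8 in 3D normoxia, and at 16.6 in 2D hypoxia against 50.4 in 2D normoxia. Its partner HLA-DMA had 12.6 FPKM in 3D hypoxia against 30.1 in 3D normoxia, and 4.49 in 2D hypoxia against 14.6 in 2D normoxia. Both fell in hypoxia (-1.48 and -1.35; limma adjusted p = 0.00766 and 0.0103) and rose in 3D (1.56 and 1.15), the directions that IFI30 also had.

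Interferon response genes moved in both directions. Of 18 listed, 15 passed, 1 rose (GBP2, 1.39) and 1 fell (OAS1, -1.41) in hypoxia. In 3D, 4 rose (OAS1 1.07, IRF7 0.86, IFIT3 0.69 and PSMB8 0.62) and 3 fell, among them OAS3 (-0.63) and TAP1 (-0.57). The shares of all genes were 10.4% and 11.6%. The antiviral synthetase OAS1 was at 20.6 FPKM in 3D hypoxia against 55.3 in 3D normoxia, and at 9.05 in 2D hypoxia against 26.2 in 2D normoxia. The leukocyte and macrophage markers had a summed level of 11.8 FPKM in 3D hypoxia, 13.4 in 3D normoxia, 4.28 in 2D hypoxia and 11.7 in 2D normoxia, most of it from CD14, and their part in the IFI30 and HLA-DM results was not tested.

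The promoter letters were then set beside the hypoxia effects. RefSeq windows matched 29 of the 45 genes, with 35 windows in all. CACGTG, read on both strands, was in 11 of the 35 windows (31.4%), against 9.35% of 13766 windows of genes tested and 7.26% of all 35116 windows. The longer TCACGTGA, which contains CACGTG, was in 6 (17.1%), against 1.69% and 0.980%. ACGTG, which lies inside CACGTG, was in 40.0% of the windows of lysosomal genes and 25.6% of those of genes tested, and GCGTG was in 65.7% and 48.6%.

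The 11 genes with CACGTG were CTSA, CTSD, CTSF, IFI30, NEU1, GAA, GALNS, ARSB, LAMP1, MCOLN1 and ATP6V0D1. LAMP1 held 6 copies, with the nearest at -1 and -28 from the start, and CTSA held copies at -42 and -25. All 11 had an average hypoxia effect below 0, with a median of -0.23, although CTSF (-0.0048), GALNS (-0.0059) and ATP6V0D1 (-0.08) were at 0 within their SE and CTSF turned to 0.0004 after centring on the median log2 ratio. Of the 18 genes with a window and no CACGTG, 11 were below 0 and the median was -0.09, and of the 16 genes with no window, 9 were below 0 and the median was -0.03. For culture, 4 of the 11 genes with CACGTG were below 0, and the median was 0.00 there and -0.06 in the 18. Over all 45 genes, 31 (68.9%) had a hypoxia effect below 0, against 51.7% of all genes tested. The hypoxia effects of the 1199 genes tested that had CACGTG in a window were not read as a set, so this background is missing. These counts describe the windows and carry no test.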

How the data were processed

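For each of 4 libraries the authors deposited FPKM values of 26255 symbols. Per the labels' protocols, RNA came from a miRNeasy Micro kit and the library kit was TruSeq Stranded mRNA. TopHat2 2.1.1, Bowtie2 2.2.8, SAMtools 0.1.18, Cuffdiff 2.2.1 and the hg19 build are named per the submitters' processing notes. The annotation, scaling and strand setting were not given in the sources used here, and no count model was run, since FPKM are not counts. The lysosomal genes and all gene lists were chosen with earlier results of these data known.

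Deposited FPKM values were taken as log2(FPKM + 1), which understates ratios of low genes, and the filter was a mean over the 4 libraries of 1 FPKM or more. limma 3.58.1 (R 4.3.3, trend, additive terms for culture and oxygen, 1 residual and 4.67 prior degrees of freedom, Benjamini-Hochberg adjustment over 12663 genes) gave the average effects of hypoxia and of culture, with a gene called at an adjusted p below 0.05. A gene that responds in 1 culture alone is seldom called by such a fit. Pairs of libraries and the difference of responses had 1 library per group and were described by size, at least 2-fold. The limma step was tested on simulated data. With gene variances drawn from the prior that limma fitted, the average share of false calls was somewhat above the rate the adjustment allows, and with noise of each gene's own moderated variance it was well above it. The adjusted p-values therefore rest on the prior model and may be too small. Depth was inferred from the commonest low step of FPKM times transcript length in 2134 genes with 1 transcript in GENCODE 29, which annotates another build and served for lengths and overlaps only. Counting errors from it cover the sampling of fragments alone. Among other genes, CTSD (up to 233), HEXA (262) and GLB1 (83) also share exonic bases with annotated genes on their strand, which makes their levels less certain.

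Genes were named by rule: those called in either effect, at least 2-fold apart in a pair, among the 3 highest of their role group, and TFEB, LAMP1 and LAMP2. From each of 9 pathway lists the called genes and up to 3 others with large effects could be named. Some genes that meet these rules are not reported here. Promoters were shown for the called genes of largest effect with a window and for 1 pump subunit. The limma fit was repeated in 8 alternatives (pseudocounts of 0.1 and 5, no filter, a mean of at least 5 FPKM, equal FPKM sums, centring on the median log2 ratio, no trend, and, chosen after seeing the data, without genes listed at 0 in any library). Steps outside R ran in Python 3.11.15 with pandas 2.3.3 and numpy 2.4.6.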

Additional observations from a re-analysis of the deposited data

Results flagged for a closer look

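CTSZ and ASAH1 had hypoxia ratios of opposite sign in the 2 cultures, each beyond its counting error, and these differences were not tested. For CTSZ the log2 ratio of hypoxia to normoxia was 0.17 in 3D and -0.22 in 2D, a difference of 0.39. For ASAH1 it was 0.22 in 3D and -0.22 in 2D, a difference of 0.44. The size required, a log2 ratio of at least 0.15 in each culture, was chosen with these values known. It left out CTSB, PSAP and SCARB2, whose ratios also had opposite signs beyond their counting errors. CTSB had 0.35 in 3D and -0.09 in 2D, and its difference of 0.437 was not tested either. PSAP had 0.11 and -0.04, and SCARB2 had 0.12 and -0.07, in the same order. GALNS had 0.17 and -0.18, but its 3D ratio lay too close to its counting error of 0.11 to be flagged.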

How the results depend on the processing

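No paired analysis was possible because each group had 1 library and the labels carry no replicate numbers, and for the same reason no library could be left out. Values changed with the scaling: bringing each library to an FPKM sum of 1000000 gave a median log2 effect of all genes of -0.14 for hypoxia (-0.01 as deposited) and -0.21 for culture (-0.03), and whether medians and sums of role groups had moved was judged relative to that shift, a rule chosen after seeing the data. The medians given elsewhere after this scaling are not corrected for the shift. Of the 45 genes, 1 was called higher and 4 lower in hypoxia. The counts were 0 and 2 with a pseudocount of 5, 0 and 0 without a filter, 0 and 9 with equal sums, and 2 and 9 without genes listed at 0, while centring and leaving out the trend gave 0 higher. In culture, 3 were higher and 4 lower. The lower count was 2 with a pseudocount of 5, 9 with equal sums and 2 after centring, and both were 0 without a filter. Over all genes, the 405 higher and 208 lower in hypoxia became 87 and 39 with a pseudocount of 5, 225 and 93 after centring, 254 and 112 without the trend, 734 and 507 without genes listed at 0, and 313 lower with a mean of at least 5 FPKM. Without a filter limma called 0 of all genes in either effect, with 1327 higher and 1485 lower in hypoxia and 1795 higher and 2723 lower in culture at an unadjusted p below 0.05, and 3 higher and 11 lower of the 45 genes in hypoxia. With a pseudocount of 0.1, 1 of the 45 genes was at least 2-fold higher in 3D hypoxia over 3D normoxia, 2 in 3D over 2D under hypoxia and 1 under normoxia, and with a pseudocount of 5 none was higher in 3D over 2D under hypoxia. Without the highest gene of each group, the log2 ratio of summed levels, 3D over 2D, was 0.12 for proteases under hypoxia (0.28 with it), 0.32 and 0.042 for lipid-related genes under hypoxia and normoxia (-0.38 and -0.54), -0.18 and -0.27 for membrane proteins (-0.37 and -0.41) and 0.12 and 0.19 for the pump (-0.02 and -0.07), and the hypoxia ratio of lipid-related sums in 2D was -0.18 (-0.06). The cause of these changes was not tested. No called value changed sign in any alternative. Depth limits the low genes most: TFEB rested on about 56 inferred fragments in 3D normoxia and 233 in 2D hypoxia.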
